A study of Mus musculus with 12 samples.

Results

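Genes of MHC class II antigen presentation were examined in mouse basophils. The cells were grown from the marrow of C57BL/6J mice, which were wild type. The members were 9 genes taken by symbol out of the 31301 gene symbols of the count table. They were the class II chain genes H2-Aa, H2-Ab1 and H2-Eb1, the peptide-loading genes H2-DMa, H2-DMb1 and Cd74, the transactivator gene Ciita, and the costimulatory ligand genes Cd80 and Cd86. Culture lasted 7 days, either with interleukin-3 (recombinant IL-3 at 0.3 ng/mL) or with TSLP (thymic stromal lymphopoietin, recombinant, 1 µg/mL), and the bone marrow-derived basophils (BMBAs) were then sorted by FcεRIα and CD49b. By the study's own description BMBAs were gated by CD200R3, a surface protein of basophils and mast cells, and c-Kit before they were divided. The TSLP dose is that of the treatment protocol, and the sample characteristics give it in mg/mL instead. FcεRIαhi CD49blo cells are called immature here and FcεRIαlo CD49bhi cells mature. Each stage under each cytokine was measured in 3 bulk RNA-seq libraries, 12 in all, and a library is named by cytokine, stage and number (TSLP mature 1). The cells of every group came from the same strain with no gene altered. Each BMBA culture starts from unseparated marrow, so the culture and the sort together set which cells were measured. The labels do not say whether a shared number marks cells of a single culture, and p-values measure the spread between these libraries.

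MHC class II molecules present peptides from endosomes to CD4+ T cells. An α chain and a β chain, encoded by H2-Aa and H2-Ab1 for the I-A molecule, assemble around the invariant chain CD74, which blocks the groove and guides the complex to endosomes. There proteases trim CD74, and H2-DM, a dimer of the H2-DMa and H2-DMb products, exchanges the remaining fragment for a peptide. H2-Eb1 encodes the β chain of I-E, whose α chain is not made in C57BL/6 mice. CIITA is a coactivator that does not bind DNA itself and works through RFX, CREB and NF-Y proteins sitting on the X and Y boxes of class II promoters. CD80 and CD86 bind CD28 and CTLA-4 on T cells. Dendritic cells, macrophages and B cells are the classical class II-bearing cells, and basophils are known for much lower levels of it.

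The X and Y boxes can be seen in the reference promoters, which are printed because 3 members share them. RefSeq promoter windows, 300 bases each and running from 250 before to 50 after a start, were matched for 5 of the 9 members on build GRCm38.p6. Both strands were searched for CTNGNAAC, a form of the X box start, and for TGATTGG, the Y box with its reversed CCAAT. The 2 motifs do not overlap each other, and they were chosen with these windows in view. H2-Aa, H2-Eb1 and H2-DMb1 held CTNGNAAC followed by TGATTGG after 23 to 26 bases, as did H2-Ob, a related class II gene that is no member. Of the other related class II genes searched, H2-DMb2 and H2-Oa held TGATTGG without CTNGNAAC, and H2-Eb2 held both in the opposite order. The stretches below run from 60 bases before the Y box to 20 bases after it, 5′ to 3′ on the gene's strand, and the capitals mark the matches to both motifs.
H2-Aa: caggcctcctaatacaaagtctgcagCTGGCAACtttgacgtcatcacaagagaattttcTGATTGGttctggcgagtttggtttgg
H2-Eb1: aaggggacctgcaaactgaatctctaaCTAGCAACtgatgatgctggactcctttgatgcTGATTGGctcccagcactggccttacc
H2-DMb1: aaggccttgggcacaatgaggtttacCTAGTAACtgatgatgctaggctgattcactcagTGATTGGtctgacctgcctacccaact
H2-Ob: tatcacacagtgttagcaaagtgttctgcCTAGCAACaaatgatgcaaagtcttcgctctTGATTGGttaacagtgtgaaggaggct
The stretches lie at chr17:34287847-34287933 (minus strand), chr17:34305746-34305832, chr17:34153068-34153154 and chr17:34238786-34238872 (all plus strand), and each Y box starts 50 to 63 bases before the RefSeq start. Among all 32851 promoter windows, 13.2% held CTNGNAAC, 7.82% held TGATTGG, and 0.076%, that is 25 windows, held the pair in this order 10 to 30 bases apart. The letters of neither motif were found in the windows of H2-DMa and Cd80. The matches describe the reference sequence only.

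By the GENCODE vM21 annotation of GRCm38, the H2 members lie within 1 stretch of chromosome 17, with H2-DMa at chr17:34119541-34139101, H2-DMb1 at chr17:34153072-34160230, H2-Ab1 at chr17:34257689-34269419, H2-Aa at chr17:34282744-34287823 and H2-Eb1 at chr17:34305867-34316674. Ciita (chr16:10480059-10528418), Cd86 (chr16:36603869-36666081) and Cd80 (chr16:38455561-38496335) lie on chromosome 16. All are protein-coding, and the counts cover their exons as a whole. The near-identical gene H2-DMb2 shared 22.7% of the 50-base stretches of H2-DMb1 transcripts, so reads of this pair are uncertain. Exons of Brd2 overlap 10.4% of the exon bases of H2-DMa on the opposite strand, and those of Dexi overlap 3.45% of Ciita, which matters where strand was not used in counting.

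Library totals ran from 1720065 to 3685285 counts, with the lowest in IL-3 immature 1. Levels are given in CPM, counts scaled to library size after TMM normalisation. Of the genes of the 2 sorting markers, Itga2 (CD49b) averaged 27.3 CPM in immature against 246.9 CPM in mature cells with IL-3, and 86.4 against 168.2 CPM with TSLP (n = 3 each). TSLP mature 1 was at 96.9 CPM of Itga2, near the immature libraries, and TSLP mature 2 and 3 averaged 203.8 CPM. Fcer1a (FcεRIα) averaged 1599 CPM in immature against 1023 CPM in mature cells with IL-3. With TSLP it averaged 1338 against 1263 CPM, which differed by less than the spread of the mature libraries. TSLP mature 1 was at 1778.5 CPM of Fcer1a, and TSLP mature 2 and 3 averaged 1006 CPM. The basophil genes Mcpt8 and Prss34 were abundant in every group but lower in mature cells. Mcpt8 averaged 16127 CPM in immature against 4990 in mature cells with IL-3, and 8765 against 2898 with TSLP. Prss34 averaged 19647 against 788 CPM with IL-3, and 15074 against 1211 with TSLP. Of the 8 basophil markers, Cd200r3, Gata2 and Itga2 had higher means in mature cells with both cytokines, and the others lower ones. All 8 summed to 10670 CPM in TSLP mature 1 and to 7506 and 8138 CPM in TSLP mature 2 and 3. One library stood apart, and the members' values in it, and the comparisons that use it, are given apart. TSLP mature 1 held 1724 CPM of 14 macrophage and monocyte markers against 754 and 815 in TSLP mature 3 and 2, 712 CPM of 9 neutrophil markers against 25.2 and 36.0, and 181 CPM of 9 B lineage markers against 23.1 and 21.3. Ribosomal RNA rows took 17.3% of its counts and 31.5% to 40.1% in the other 5 TSLP libraries, against 14.7% to 25.0% in the 6 IL-3 libraries. Their share thus differed with the cytokine in the comparisons of TSLP with IL-3 below, and its part in those results was not tested.

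Class II chain genes were lowest in IL-3 immature cells and highest in TSLP mature cells. With IL-3, H2-Aa, the I-A α chain, was at 17.95, 4.0 and 3.31 CPM in the immature libraries 1, 2 and 3, and at 44.9, 33.5 and 17.6 CPM in the mature ones. With TSLP it was at 20.7, 16.4 and 18.4 CPM in the immature libraries, 68.9 and 64.9 in mature 2 and 3, and 231 in mature 1. IL-3 immature 1 stood above both other libraries of its group and just above the lowest IL-3 mature library, so these groups overlapped. H2-Ab1, the I-A β chain, was at 23.3, 20.6 and 16.2 CPM in immature and 60.6, 40.8 and 29.3 CPM in mature libraries with IL-3. In TSLP cultures it was at 33.1, 29.3 and 27.6 CPM in immature libraries, 71.5 and 69.5 in mature 2 and 3, and 222 in mature 1. Its mature libraries lay above the immature ones within each cytokine. H2-Eb1, the I-E β chain, was at 4.85, 2.0 and 0.993 CPM in immature and 24.9, 13.1 and 17.1 CPM in mature libraries with IL-3. With TSLP it was at 10.2, 14.8 and 12.3 CPM in immature libraries, 32.9 and 32.0 in mature 2 and 3, and 121 in mature 1. The 3 chain genes kept TSLP mature as the highest group with or without that library.

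**Figure D1:**
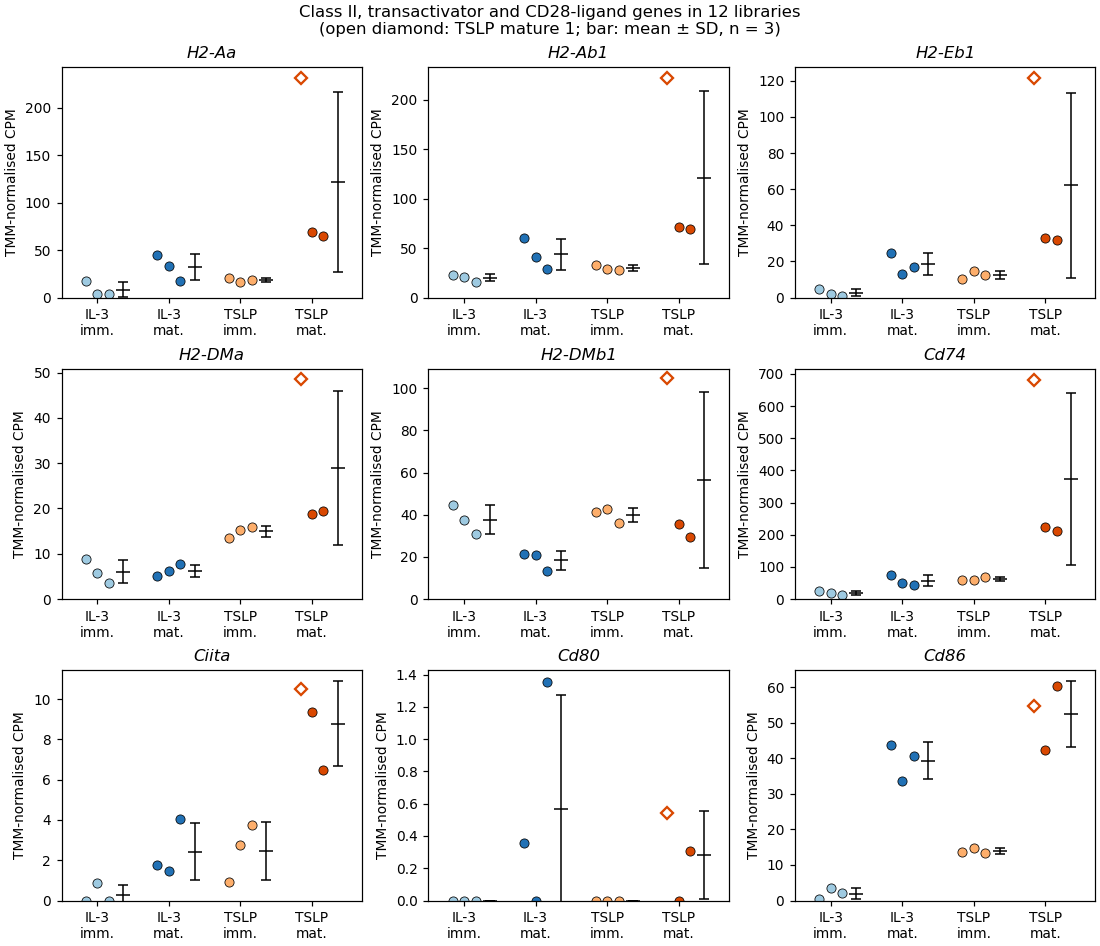
TMM-normalised CPM (vertical axis, linear, from 0) of each of the 9 members in the 4 groups, 1 point per library, with mean ± SD (n = 3) beside them and TSLP mature 1 as an open diamond. The diamond lies far above the other 2 TSLP mature libraries for the chain, DM and Cd74 genes but near them for Ciita and Cd86, and Cd80 stays below 1.4 CPM.

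The loading genes did not all follow the chains. Cd74 was at 24.3, 18.9 and 13.9 CPM in immature and 76.2, 48.4 and 45.1 CPM in mature libraries with IL-3. In TSLP cultures it was at 60.7, 57.8 and 68.8 CPM in immature libraries, 224 and 212 in mature 2 and 3, and 683 in mature 1. The IL-3 mature and the TSLP immature libraries overlapped. H2-DMa was at 8.73, 5.71 and 3.64 CPM in immature and 4.99, 6.19 and 7.67 CPM in mature libraries with IL-3, which overlapped. With TSLP it was at 13.5, 15.2 and 16.0 CPM in immature libraries, 18.7 and 19.4 in mature 2 and 3, and 48.6 in mature 1, so that every TSLP library lay above every IL-3 library. H2-DMb1 was at 44.6, 37.4 and 30.8 CPM in immature and 21.4, 20.8 and 13.1 CPM in mature libraries with IL-3. With TSLP it was at 41.2, 42.6 and 36.1 CPM in immature libraries, 35.5 and 29.5 in mature 2 and 3, and 105 in mature 1. The IL-3 mature libraries were thus the lowest for H2-DMb1, whereas the chain genes had their lowest means in IL-3 immature cells. Its near-copy H2-DMb2 averaged 26.4 CPM in immature and 13.5 in mature cells with IL-3, and 22.3 and 25.6 with TSLP, or 13.7 over TSLP mature 2 and 3.

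Ciita was close to the limit of detection. It had 0, 3 and 0 counts in immature and 5, 4 and 9 in mature libraries with IL-3. With TSLP it had 3, 7 and 11 counts in immature libraries, 33 and 21 in mature 2 and 3, and 39 in mature 1, so the TSLP mature libraries lay above all others. In CPM it averaged 0.286 ± 0.495 in immature and 2.43 ± 1.42 in mature cells with IL-3, and 2.46 ± 1.44 and 8.78 ± 2.09 with TSLP (SD, n = 3 each), or 7.91 over TSLP mature 2 and 3. IL-3 mature and TSLP immature cells differed by less than their spread.

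The CD28 ligands were split. Cd80 had 7 counts in all, with 1, 0 and 3 in IL-3 mature, 2, 0 and 1 in TSLP mature and 0 in each of the 6 immature libraries, and it did not pass the filter on low counts. A count of 0 in a group allows up to 0.35 CPM in immature cells with IL-3 and 0.34 CPM with TSLP (3 counts over the group), so no difference in Cd80 was detectable at this depth. Cd86 was at 0.485, 3.43 and 1.99 CPM in immature and 43.8, 33.5 and 40.6 CPM in mature libraries with IL-3. Its levels with TSLP were 13.5, 14.8 and 13.3 CPM in immature and 54.8, 42.3 and 60.3 CPM in mature libraries. The mature groups overlapped, and TSLP immature lay between the IL-3 immature libraries and both mature groups without overlap.

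Levels of different genes can be set side by side only per length. Per kilobase of the longest coding transcript, Cd74 led in TSLP mature 2 and 3, at 155 CPM, before H2-Aa at 59.3, H2-Ab1 at 58.2, H2-DMb1 at 23.1, Cd86 at 20.2, H2-Eb1 at 19.4, H2-DMa at 9.50 and Ciita at 1.32. The ranges of H2-Aa and H2-Ab1 overlapped there, and that of Cd86 overlapped those of H2-DMb1 and of H2-Eb1, which did not overlap each other. In IL-3 immature cells the order was another, with H2-DMb1 at 26.8 ± 4.93 CPM per kilobase, H2-Ab1 at 16.5 ± 2.94, Cd74 at 13.5 ± 3.67, H2-Aa at 7.46 ± 7.32, H2-DMa at 3.01 ± 1.28, H2-Eb1 at 1.57 ± 1.20, Cd86 at 0.775 ± 0.580 and Ciita at 0.0476 ± 0.0824 (SD, n = 3). In those cells the means of H2-Ab1 and Cd74 differed by less than their spread.

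In cultures with IL-3, mature cells had more class II chain RNA and far more Cd86 than immature cells. With edgeR's quasi-likelihood test, in which a gene is called at an adjusted p under 0.05, 6 of the 8 tested members rose on maturation and 1 fell, while 46.2% of all 10861 tested genes were called (24.1% higher and 22.1% lower). Cd86 rose most, by 4.15 ± 0.33 on the log2 scale (fold change ± SE; adjusted p = 4.98e-08). H2-Eb1 rose by 2.93 ± 0.64 (adjusted p = 0.00141), H2-Aa by 2.08 ± 0.60 (0.00983), Cd74 by 1.59 ± 0.40 (0.00408) and H2-Ab1 by 1.14 ± 0.40 (0.0292). Ciita rose by 2.63 ± 0.89 (adjusted p = 0.0231), on 18 counts against 3, a ratio of 6.63 with a 95% counting interval of 1.93 to 35.1. H2-DMb1 fell, with a log2 fold change of -1.01 ± 0.39 (adjusted p = 0.0433), and H2-DMa differed by 0.10 ± 0.46 (adjusted p = 0.881). Mature libraries lay above all immature ones for 5 members (all but H2-Aa and the DM genes), as 30% of tested genes did, and below them for H2-DMb1, as 27.8% did. The median over the 8 members was 1.83 against 0.06 over all tested genes.

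Without TSLP mature 1 the same 7 members were called, where 51.5% of 11020 genes were. Cd86, H2-Eb1 and Cd74 kept this call without any 1 library. H2-Aa lost it without IL-3 immature 2 or 3 (adjusted p = 0.0757 and 0.0748), and Ciita without IL-3 immature 1 or 3 or IL-3 mature 3 (0.0677, 0.0962 and 0.113). H2-Ab1 lost it without any of IL-3 immature 1, 2 and 3, IL-3 mature 1 and 2, and TSLP immature 1 and 2 (0.0531 to 0.142). H2-DMb1 lost it without any 1 of the 6 IL-3 libraries or of TSLP immature 1 and 2 (0.0524 to 0.145).

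Summed macrophage and monocyte markers moved in the same direction. They were at 376, 310 and 225 CPM in IL-3 immature 1, 2 and 3 and at 1190, 957 and 800 in IL-3 mature 1, 2 and 3. The 6 class II genes (chains, DM genes and Cd74) summed to 124, 88.6 and 68.9 and to 233, 163 and 130 CPM in the same libraries. Lyz2, Ccr2, Ly6c2 and Adgre1 made up most of the marker sum, and of the 14 markers at most 2 were at 0 in an IL-3 library. Summed dendritic cell markers overlapped between the stages (123 to 147 CPM in immature against 116 to 181 in mature libraries), although Clec10a among them rose (3.14, adjusted p = 0.00132), and Clec9a, which defines a dendritic cell subset, had no count in any of the 12 libraries. The part of other cells in these values was not tested, and in bulk samples fewer cells of a type and less RNA per cell cannot be told apart.

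In cultures with TSLP the chains, Cd74, Ciita and Cd86 were again higher in mature cells. Of the 8 tested members 7 rose and 0 fell, where 25.1% of all tested genes were called (12.9% higher). H2-Aa rose by 2.71 ± 0.52 (adjusted p = 0.00123), Cd74 by 2.58 ± 0.38 (1.07e-04), H2-Eb1 by 2.33 ± 0.47 (0.0016) and H2-Ab1 by 2.01 ± 0.38 (0.00107). Cd86 rose by 1.92 ± 0.25 (adjusted p = 3.03e-05), Ciita by 1.85 ± 0.52 (0.0147) and H2-DMa by 0.96 ± 0.34 (0.0477). H2-DMb1 differed by 0.51 ± 0.36 (adjusted p = 0.327). All mature libraries lay above all immature ones for these 7 members, as for 20.4% of tested genes. The members' median was 1.96 against 0.03 over all tested genes.

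Without TSLP mature 1 the same comparison kept 6 of these 7 calls, where 31.4% of 11020 genes were called, at smaller sizes. H2-Aa was then at 1.75 ± 0.38 (adjusted p = 0.0022), Cd74 at 1.71 ± 0.20 (9.11e-06), H2-Eb1 at 1.30 ± 0.29 (0.00291) and H2-Ab1 at 1.13 ± 0.23 (0.00128). Cd86 and Ciita moved little, to 1.79 ± 0.24 (3.58e-05) and 1.62 ± 0.55 (0.0328). H2-DMa went to 0.26 ± 0.26 (adjusted p = 0.473), and H2-DMb1 turned to -0.39 ± 0.21 (0.175), with both remaining mature libraries below all 3 immature ones, as for 25.8% of tested genes. For the other 7 members they lay above them, as for 31.7%. H2-DMa was called under only 4 of 20 alternatives. It was called without TSLP mature 2 or 3 but not without any 1 of the other 10 libraries (adjusted p 0.055 to 0.473), nor with the DESeq2 Wald test (0.0717), with DESeq2 size factors in edgeR (0.0623) or with a filter of 10 CPM (0.0863). Ciita lost its call without TSLP immature 1 or 2 (0.107 and 0.0517).

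Macrophage and monocyte markers rose in the same comparison, 10 of 11 tested with all libraries and 8 of 11 without TSLP mature 1. Their sum was 337 to 407 CPM in TSLP immature libraries, 754 and 815 in TSLP mature 3 and 2, and 1724 in TSLP mature 1. At most 3 of the 14 markers were at 0 in a TSLP library. Of the 5 tested dendritic cell markers 2 rose, or 1 rose and 1 fell without TSLP mature 1, and of the 3 tested B lineage markers none was called, or 2 fell without it. The part of other cells in the class II values was not tested.

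**Figure D2:**
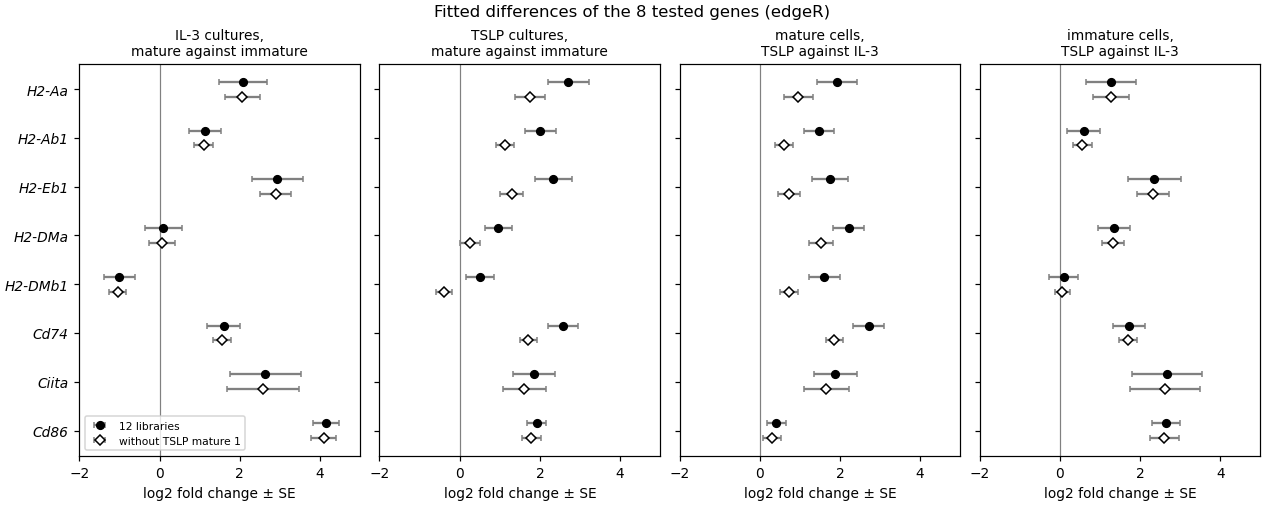
Log2 fold change ± SE (horizontal axis) of the 8 tested members in 4 comparisons, from the fit to all 12 libraries (filled circles) and without TSLP mature 1 (open diamonds). Leaving that library out moved the chain, DM and Cd74 values left in both comparisons that use it and moved Ciita and Cd86 by less than 0.3.

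Among mature cells, TSLP cultures held more RNA of the class II pathway than IL-3 cultures, while Cd86 differed little. With all 12 libraries 7 of the 8 members were higher with TSLP and 0 lower, where 24.3% of tested genes were called (12.4% higher). The largest difference was that of Cd74, at 2.72 ± 0.38 (adjusted p = 3.09e-04), followed by H2-DMa at 2.21 ± 0.38 (0.00119), H2-Aa at 1.92 ± 0.50 (0.0123) and Ciita at 1.89 ± 0.53 (0.0176). H2-Eb1 was higher by 1.75 ± 0.45 (adjusted p = 0.0112), H2-DMb1 by 1.61 ± 0.38 (0.00724) and H2-Ab1 by 1.47 ± 0.37 (0.0105). Cd86 differed by 0.42 ± 0.23 (adjusted p = 0.197). For the 7 called members all TSLP mature libraries lay above all IL-3 mature ones, as for 20.9% of tested genes. The members' median of 1.82 stood against 0.09 over all tested genes.

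Without TSLP mature 1, 4 of these 7 calls remained, where 26.9% of 11020 genes were called: Cd74 at 1.86 ± 0.21 (adjusted p = 2.5e-05), H2-DMa at 1.53 ± 0.29 (0.00121), Ciita at 1.66 ± 0.56 (0.0372) and H2-DMb1 at 0.72 ± 0.23 (0.025). The chain genes narrowly missed the threshold, with H2-Aa at 0.96 ± 0.36 (0.0591), H2-Ab1 at 0.60 ± 0.22 (0.0561) and H2-Eb1 at 0.73 ± 0.28 (0.0653). TSLP mature 2 and 3 still lay above all 3 IL-3 mature libraries for these 7 genes, as 31% of all tested genes did. The 3 chain genes also lost their call without IL-3 mature 2 or 3 (adjusted p 0.0543 to 0.0747), H2-DMb1 without IL-3 mature 3 (0.051), and Ciita without IL-3 mature 1 or 2 (0.0711 and 0.1).

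The summed class II level was 130 to 233 CPM in IL-3 mature libraries, 428 and 452 in TSLP mature 3 and 2, and 1411 in TSLP mature 1. The macrophage and monocyte sum was 815 and 754 CPM in TSLP mature 2 and 3 and 800 to 1190 CPM in IL-3 mature libraries. Ccr2 averaged 119 CPM in TSLP mature 2 and 3 against 340 in IL-3 mature cells. In TSLP mature 2 and 3 it lay below Lyz2 (248 CPM), Adgre1 (207) and Ly6c2 (137). Without Ccr2 the sums were 691 and 640 against 480 to 832 CPM, with the IL-3 range spanning both TSLP libraries. Of the 11 tested markers, 2 were called higher with TSLP and 2 lower without TSLP mature 1: Adgre1 (1.05, adjusted p = 4.13e-04) and Mrc1 (3.08, 0.00277) were higher, and Ccr2 (-1.60, 1.19e-05) and Cd68 (-0.99, 0.0207) lower. B lineage markers did differ with the cytokine, at 2.91 to 4.27 CPM in IL-3 mature and 21.3 and 23.1 in TSLP mature 2 and 3, and the part of both marker lists in the class II difference was not tested.

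**Figure D3:**
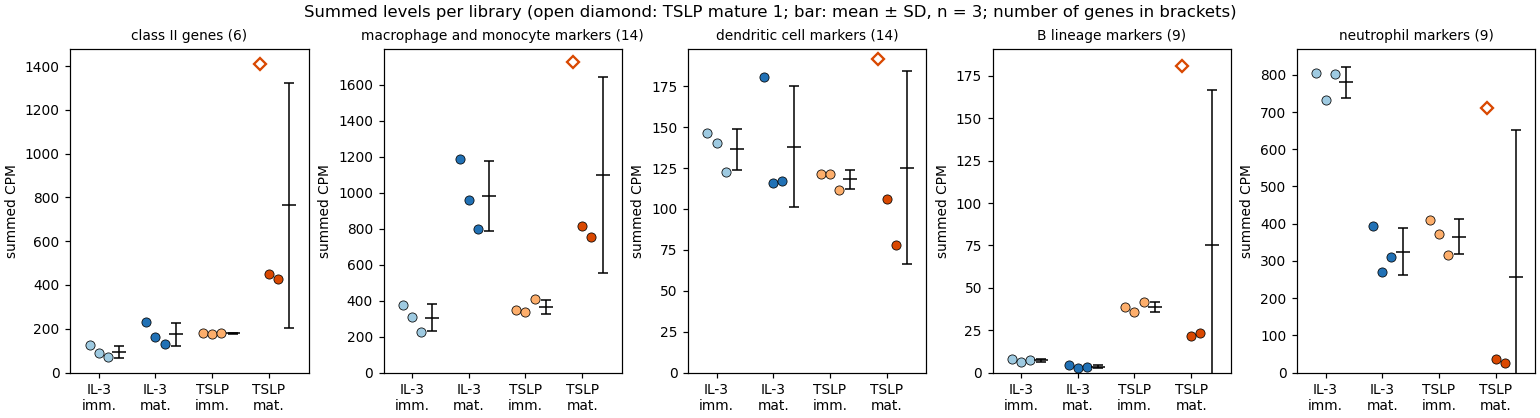
Summed CPM per library (vertical axis, from 0) of the 6 class II genes and of marker lists of 4 other cell types, in the 4 groups, with mean ± SD (n = 3) and TSLP mature 1 as an open diamond. Among mature libraries other than TSLP mature 1, class II lies at 428 and 452 CPM with TSLP and 130 to 233 with IL-3, and the macrophage and monocyte sum, which holds Ccr2, at 754 and 815 against 800 to 1190.

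Among immature cells, TSLP cultures had more Cd86, Cd74, H2-Eb1 and H2-DMa. These 4 of the 8 members were called, all higher, where 13.3% of tested genes were called (7.38% higher). Cd86 differed by 2.65 ± 0.35 (adjusted p = 1.74e-04), H2-Eb1 by 2.36 ± 0.66 (0.0279), Cd74 by 1.73 ± 0.40 (0.0102) and H2-DMa by 1.35 ± 0.40 (0.0367). Ciita, at 2.66 ± 0.87, missed the threshold (adjusted p = 0.0533), as did H2-Aa at 1.28 ± 0.62 (0.185), H2-Ab1 at 0.59 ± 0.41 (0.364) and H2-DMb1 at 0.09 ± 0.37 (0.899). All TSLP immature libraries lay above all IL-3 immature ones for 6 members (all but H2-Aa and H2-DMb1), as for 20.2% of tested genes. The median over the members was 1.54 against 0.04 over all tested genes.

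The call for Cd86 held without any 1 library. Cd74 lost it without IL-3 immature 2 or 3 (adjusted p = 0.0591 and 0.0604), H2-Eb1 without IL-3 immature 2 or 3 or any TSLP immature library (0.0571 to 0.131), and H2-DMa without IL-3 immature 2 or 3, IL-3 mature 2 or 3 or any TSLP immature library (0.0605 to 0.159). Ciita was called without IL-3 immature 2, TSLP immature 1 or TSLP mature 1 (0.0378, 0.0394 and 0.0446). With TSLP mature 1 left out, 5 members were called, where 20.4% of 11020 genes were. Macrophage and monocyte markers summed to 225 to 376 CPM in IL-3 immature and 337 to 407 in TSLP immature libraries. Of the 11 tested, 3 were called higher with TSLP and 0 lower, and 4 and 1 without TSLP mature 1. With all 12 libraries these were Adgre1 (3.71, adjusted p = 1.27e-07), Ly6c2 (2.39, 5.63e-04) and Mrc1 (2.63, 0.0482). B lineage markers summed to 6.28 to 8.25 CPM in IL-3 immature and 35.9 to 41.9 in TSLP immature libraries. The part of both marker lists was not tested.

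The difference between the maturation effects of the cytokines was called for Cd86 alone among the 8 members, where 4.19% of tested genes were called (2.15% in its direction). The log2 fold change of Cd86 from immature to mature was 2.23 smaller with TSLP than with IL-3 (difference -2.23 ± 0.43, adjusted p = 0.0075). It was -2.31 ± 0.43 (adjusted p = 0.00412) without TSLP mature 1, where 6.56% of 11020 genes were called. The levels show where this lies: the immature groups differed by 2.65 on the log2 scale and the mature groups by 0.42. Itga2, the gene of the sorting marker CD49b, had a difference of like size (-2.22 ± 0.37, adjusted p = 0.00287). Of the 11 tested macrophage and monocyte markers, 3 were called in the direction of Cd86 and 0 in the other, with or without TSLP mature 1. Among them were Adgre1 (-2.65, adjusted p = 1.78e-04) and Ccr2 (-1.998, 1.42e-04), with all 12 libraries. The part of other cells in the Cd86 difference was not tested. For the other 7 members the difference ran from -0.78 (Ciita, ± 1.01, adjusted p = 0.747) to 1.52 (H2-DMb1, ± 0.53, 0.125), and H2-DMb1 was called without TSLP mature 3, at 1.83 (0.0395). Without TSLP mature 1, H2-Eb1 was at -1.60 ± 0.51 (adjusted p = 0.0701) and H2-Aa, H2-Ab1 and Cd74 at -0.31 to 0.16.

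TSLP mature 1 differed from TSLP mature 2 and 3 unevenly across the members. The ratio of its level to that of the other pair was 3.74 for H2-Eb1 (95% counting interval 3.18 to 4.41), 3.45 for H2-Aa (3.08 to 3.87), 3.21 for H2-DMb1 (2.71 to 3.8), 3.15 for H2-Ab1 (2.81 to 3.53), 3.12 for Cd74 (2.93 to 3.33) and 2.55 for H2-DMa (2.02 to 3.22). For Ciita it was 1.32 (0.851 to 2.03) and for Cd86 1.08 (0.90 to 1.28), intervals that include 1. Over all tested genes, 7% were more than 2-fold higher in that library, with 1 CPM added to both values. The members that stood out were those coding for class II proteins and their loading factors, and 7 of 9 genes for endosomal proteases and their partners were over 2-fold higher too. So were 6 of 11 tested macrophage and monocyte markers, 3 of 5 dendritic cell, 3 of 3 B lineage and 7 of 8 neutrophil markers. That library was given apart because macrophage and dendritic transcripts are raised there, so the counts of those markers restate the choice. The intervals of the ratios cover counting error only.

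Other genes of antigen presentation were taken from 6 lists with 47 genes, of which 40 were tested. In IL-3 cultures 7 rose on maturation and 5 fell, which is 30% against 46.2% of all tested genes, and without TSLP mature 1 10 rose and 6 fell (40% against 51.5%). In TSLP cultures 10 rose and 3 fell (32.5% against 25.1%), and 9 and 9 without TSLP mature 1 (45% against 31.4%). Among mature cells 10 were higher with TSLP and 2 lower (30% against 24.3%), and 8 and 10 without it (45% against 26.9%). Among immature cells 6 were higher and 2 lower (20% against 13.3%), and 7 and 5 without it (30% against 20.4%). In the interaction H2-D1 (-0.93, adjusted p = 0.0473) and Calr (1.28, adjusted p = 0.00859) were called, 1 higher and 1 lower (5% against 4.19%). Without TSLP mature 1, 1 was called higher and 4 lower (12.5% against 6.56%). Of the calls named below, 3 were lost without TSLP mature 1 (Rfx5 and Ifi30 among mature cells and Ctsl on TSLP maturation), and the others held.

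Other class II genes did not move as the chains did. H2-Oa, a subunit of the H2-O inhibitor of H2-DM, fell on maturation with IL-3 (log2 fold change -0.72 ± 0.27, adjusted p = 0.0355), from 77.2 ± 13.4 to 46.7 ± 14.5 CPM (SD, n = 3). H2-Ob, the other H2-O subunit and a gene with the X and Y boxes printed above, was higher with TSLP in mature cells (1.17, adjusted p = 0.00376) and in immature cells (1.15, adjusted p = 0.00737). It averaged 15.4 and 17.1 CPM in immature and mature cells with IL-3, and 33.5 and 38.7 CPM with TSLP. Its change on maturation was 0.19 with IL-3 and 0.21 with TSLP (adjusted p = 0.58 and 0.555). H2-DMb2 was not called in any of the 4 comparisons with all 12 libraries, but fell on maturation with IL-3 when TSLP mature 1 was left out of the fit (-0.96, adjusted p = 0.0154), and H2-Eb2 had too few counts to be tested.

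Of the factors on the X and Y boxes 7 were tested. Rfxank rose (0.84, adjusted p = 0.034) and Nfyb fell (-0.55, adjusted p = 0.0292) on maturation with IL-3, where 46.2% of all tested genes were called. None was called on maturation with TSLP with all 12 libraries, where 25.1% of genes were. Without TSLP mature 1 Nfyb fell there (-0.65, adjusted p = 0.0216), where 31.4% of genes were called. Rfx5 was higher with TSLP in mature cells (0.71, adjusted p = 0.0475), where 24.3% of genes were called. That call was lost without TSLP mature 1 (0.56, adjusted p = 0.136). None of the 7 was called among immature cells, where 13.3% of genes were.

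Of 9 endosomal proteases and their partners, 6 rose with maturation in TSLP cultures and 1 fell (5 and 1 without TSLP mature 1), where 12.9% of all tested genes rose and 10 of 11 macrophage and monocyte markers did. Ctsb and Cst3 were not called. Ctss, the protease that trims CD74, rose by 2.89 ± 0.69 (adjusted p = 0.00575), and by 1.70 without TSLP mature 1 (adjusted p = 0.0309). Ctsd, an aspartic protease, rose by 1.63 (adjusted p = 1.90e-05). Ctsl rose by 1.95 (adjusted p = 0.0262), but without TSLP mature 1 it was at 0.83 (adjusted p = 0.256). Ifi30, the thiol reductase that opens disulfide bonds of antigens, fell on maturation with both cytokines, with log2 fold changes of -2.61 in IL-3 (adjusted p = 5.79e-05) and -1.21 in TSLP cultures (adjusted p = 0.0203). With IL-3, Ctsd rose (2.39, adjusted p = 1.27e-07), the single rise of this list with all 12 libraries, and without TSLP mature 1 Lgmn was called too (1.22, adjusted p = 0.0316). Among mature cells Ctsh (1.47, adjusted p = 0.00713), Ifi30 (1.20, 0.0413) and Ctsz (1.14, 0.00147) were higher with TSLP, and without TSLP mature 1 Ifi30 was at 0.20 (adjusted p = 0.545). Without that library 2 of this list were higher with TSLP and 3 lower: Ctsl (-1.29, adjusted p = 0.0439), Ctsb (-1.05, 0.00852) and Cst3 (-1.01, 0.00107). Among immature cells Ctsd was higher with TSLP (0.68, adjusted p = 0.0318). Without TSLP mature 1, Ctss (-1.91, adjusted p = 0.0179) and Ctsl (-1.66, 0.0189) were called lower there as well.

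Of the ubiquitin ligases that remove class II from the surface, March1 rose on maturation with TSLP (2.28, adjusted p = 0.0144), at a mean of 1.07 CPM in immature and 5.6 CPM in mature cells. It was the single call of its list and lay below the 10 CPM set for examples, and it was named after its values were seen. Of other costimulators and T cell ligands 5 of 10 were tested. Cd274 and Pdcd1lg2, the genes of the PD-1 ligands, rose on maturation with IL-3 (1.19 and 1.28, adjusted p = 3.90e-04 and 7.18e-05), and Cd274 rose with TSLP (0.78, adjusted p = 0.0152). Icam1, an adhesion ligand of T cells, was higher with TSLP in mature cells (1.31, adjusted p = 0.015). Icosl, the ligand of ICOS, was higher with TSLP in both stages (2.20 in mature and 2.49 in immature cells, adjusted p = 0.0123 and 0.0131) at under 5 CPM, and it was likewise named after its values were seen. Cd40 and Cd83 were not tested, and their means in TSLP mature cells were 2.69 and 4.94 CPM with TSLP mature 1 and 1.19 and 1.88 CPM without it.

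Class I genes moved both ways, with 3 of 14 higher and 2 lower on maturation with IL-3, where 46.2% of all tested genes were called, and 2 and 2 with TSLP, where 25.1% were. The class I heavy chain genes H2-D1 and H2-K1 rose with both, by 2.32 and 1.20 in IL-3 (adjusted p = 5.84e-08 and 2.60e-05) and 1.39 and 0.78 in TSLP cultures (adjusted p = 3.13e-05 and 0.00284). Calr and Pdia3, chaperones of the loading complex and of protein folding in general, fell with both, with -2.73 and -1.61 in IL-3 (adjusted p = 1.24e-08 and 6.66e-06) and -1.45 and -1.11 in TSLP cultures (adjusted p = 2.17e-05 and 6.00e-04). Among mature cells the immunoproteasome subunit genes differed both ways with TSLP, Psmb8 lower (-1.28, adjusted p = 0.0143) and Psmb10 higher (1.06, 0.00666), and Tap2, a subunit of the peptide transporter, was higher (0.69, 0.0113). Among immature cells H2-K1 was higher with TSLP (1.07, adjusted p = 8.08e-04), as were H2-D1 (0.87, 0.00507) and Tap2 (0.66, 0.0232), and Pdia3 (-0.89, 0.00743) and Calr (-0.79, 0.00847) were lower. Leaving TSLP mature 1 out moved the class I counts among mature cells from 3 higher and 2 lower to 3 and 6, and those on maturation with TSLP from 2 and 2 to 2 and 6.

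Across libraries, the genes whose log2 levels were most like the mean of the 6 class II genes were ranked by Pearson's r, as a description over points that share group differences and TSLP mature 1. Over 12 libraries the 10 closest were Ctsh (r = 0.947), Bckdha, F10, Lyl1, H2-Ke6, Mrc1, Surf2, Lsp1, Ctsz and Snx5 (r = 0.914). Over the 11 libraries without TSLP mature 1, 2 of these remained, Lsp1 (0.955) and Mrc1 (0.925), and Tsc22d1 came first (0.961). The members themselves had r from 0.91 (H2-DMa) to 0.974 (Cd74) with the mean they belong to, except H2-DMb1 at 0.594, and without TSLP mature 1 H2-DMb1 was at 0.139. Closest to Cd86 were Litaf, Id1 and Ccl4 over 12 and over 11 libraries (r = 0.984 to 0.994). Closest to Ciita were Rgs14, Rsrp1 and Plod3 over 12 libraries (0.953 to 0.957), of which Rsrp1 remained over 11.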

How the data were processed

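The authors deposited 1 table of raw counts per gene, and its 12 columns are the libraries. By the study's methods and the submitters' processing notes, reads were trimmed with cutadapt and aligned with Bowtie2 to mouse reference RNA. The methods name GRCm38 and the notes GRCm39 and mm10. Whether strand was used, and how multi-mapping reads were treated: not given in the sources used here. A row without a gene name, equal to the total of the named rows (50% of each column), was left out. edgeR 4.0.16 in R 4.3.3 fitted 1 mean per group to all 12 libraries with no block, after filterByExpr (minimum count 10, total 15; 10861 genes) and TMM scaling, and p-values of the quasi-likelihood test were adjusted by Benjamini-Hochberg over all tested genes. The script was tested on simulated data. TSLP mature 1 was also left out as a second setting. Differences are mature minus immature and TSLP minus IL-3. Ratios of counts carry exact 95% binomial intervals, and since PCR copies were not collapsed by molecular identifiers as far as stated, intervals and floors cover counting error only. Any 2 libraries of a group differed by more than sampling noise. Examples from a list were the called genes with the largest change and a mean of at least 10 CPM, and the 10 genes most like the class II mean, or 3 for Ciita and Cd86, were named. The members, lists and rules were chosen with earlier results of these data known. DESeq2 1.42.0 was an alternative.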

Additional observations from a re-analysis of the deposited data

Results flagged for a closer look

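The maturation effect on Cd86 differed between the cytokines by a test of the difference itself. The log2 fold change from immature to mature was 4.15 with IL-3 and 1.92 with TSLP, a difference of -2.23 ± 0.43 (edgeR interaction term, adjusted p = 0.0075). In both cultures 3 of 3 mature libraries lay above 3 of 3 immature ones, as for 30% of tested genes with IL-3 and 20.4% with TSLP. The IL-3 immature libraries held 1, 12 and 6 counts of Cd86, so the 4.15 rests on few counts in that group. The difference was called under all 19 alternatives, at -2.92 to -1.95 (adjusted p 5.9e-05 to 0.0304). Itga2 and 3 of 11 tested macrophage and monocyte markers were called in the same direction with all 12 libraries.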

How the results depend on the processing

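Depth limits Ciita and Cd80 most, and 3 libraries per group limit the rest. Leaving out each library in turn, the members called ran from 3 to 7 for maturation with IL-3, 5 to 7 for maturation with TSLP, 3 to 7 among mature cells, 1 to 5 among immature cells and 1 to 2 for the interaction. The genes called ran from 4193 to 5676, 1774 to 3456, 1658 to 2968, 588 to 2243 and 240 to 723 in the same order, with the lowest values without IL-3 immature 3 for members on IL-3 maturation and among immature cells, without IL-3 mature 2 or 3 for members among mature cells, without TSLP immature 1 and 3 for genes on TSLP maturation and among immature cells, and without IL-3 mature 2 for genes among mature cells and in the interaction. With only the 2 groups compared, 1714 genes and 4 members were called among mature cells. Without a filter on low counts, 3 members were called in the interaction (Cd86, H2-DMb1 and Cd74). The causes were not tested.

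Some small differences turned direction, none of them called in either fit. H2-DMa on IL-3 maturation went to -0.0225 under a filter of 10 CPM in 3 libraries, which also dropped Ciita, and to -0.22 and -0.10 without IL-3 immature 3 and IL-3 mature 3 (up to 0.36 without any 1 library). H2-DMb1 went to -0.39 on TSLP maturation without TSLP mature 1 (up to 0.77 without another) and to -0.065 among immature cells without IL-3 immature 3 (up to 0.21). H2-Aa went to -0.46 and -0.31 in the interaction without IL-3 immature 1 and without TSLP mature 1 (up to 1.03). The mean summed class II level of TSLP immature cells was 204 CPM when scaled to totals without Rn45s and with no TMM factor, against 178. Leaving out a library gave means of 78.7 to 106 CPM in immature and 146 to 198 in mature cells with IL-3, and 178 to 179 and 440 to 931 with TSLP. Of the 10 genes most like the class II mean 2 were shared without TSLP mature 1, and with a prior count of 0.5 in place of 2, 1 of 3 was shared for Ciita and 1 of 3 for Cd86. Without TSLP mature 1, 1 of 3 was shared for Ciita and 3 of 3 for Cd86.

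Whether a shared number pairs the libraries is not known. Correlations of deviations from the group means ran from -0.08 to 0.39 over 18 pairs with the same number (median 0.08, 15 above 0), and from -0.31 to 0.27 over 36 pairs with different numbers (median -0.05), and a library correlated best with its own number in 24 of 36 cases, a hint from the data and not the design. With the replicate number as a block, 7, 7, 7, 5 and 1 members were called in the order above and 5251, 3067, 2853, 1893 and 556 genes. H2-Aa among immature cells became a call under the block (1.42, adjusted p = 0.0185), and no other member's call changed.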
